A study of Zea mays with 24 samples.

Results

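Among the genes measured in 6 dissected parts of the maize seed, 316 were present in 5 of them and low in the endosperm adjacent to the scutellum (EAS). They were chosen from the data. The mean level had to reach at least 2 CPM (a read count per 1 M reads in genes, on TMM-scaled library sizes) in embryo (Emb), apical scutellum (AS), endosperm (End), scutellar aleurone layer (SAL) and pericarp (Per), and the lowest of these 5 means had to be at least 4 times the EAS mean. The 316 EAS-low genes are a subset of the 26495 genes that passed the filter on low counts and of the 15526 genes at 2 CPM or more in the 5 other tissues. Every difference from EAS was therefore used in the choice and is given below as a description.

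Each tissue had 4 libraries, 24 in all, from wild-type plants of the inbred line B73 grown under glass, with days of 24 °C, nights of 19 °C and 16 h of illumination, and left untreated. For SAL replicate 1, of line and genotype only the genotype, wild type, is labelled. The labels give neither the age of the seeds nor the number of plants per sample, and do not say whether End samples contained EAS or SAL tissue, or Emb samples AS tissue. Reads counted in genes numbered 37.6 M to 61.1 M in all libraries but SAL replicate 2, which held 15.1 M.

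The endosperm is the seed's storage tissue, and its outermost cell layer is the aleurone. On the embryo's side, the scutellum lies against the endosperm as a shield-shaped organ, and the EAS is the strip of endosperm cells facing it. As the embryo grows, endosperm cells beside it are crushed and lost, and nutrients leave the endosperm there. The pericarp is the maternal fruit wall. The deposited tables identify genes by B73 identifiers without names. None of these identifiers occurs in the gene table used here, so genes are printed by identifier, no function is given to them, and the tissue labels could not be checked against marker genes. In bulk tissue, fewer cells of a type and less RNA per cell cannot be told apart.

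The EAS-low genes had reads in the EAS libraries, most of them at low levels. All 316 had at least 1 read in the 4 EAS libraries together, and 2 had 3 reads or fewer. Their mean in EAS was under 0.1 CPM for 28 genes, under 0.5 CPM for 113, under 1 CPM for 192, under 5 CPM for 293 and under 10 CPM for 306. The median over the genes was 0.711 CPM in EAS, with quartiles of 0.349 and 1.43 CPM, against a median of 5.72 CPM in the lowest other tissue, with quartiles of 3.58 and 10.8 CPM. The EAS mean was 14.3% of the lowest other mean at the median, with quartiles of 7.97% and 19.1%. For 136 genes the lowest other mean was at least 8 times the EAS mean, for 55 at least 20 times and for 15 at least 100 times.

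All 4 EAS libraries lay under all 20 other libraries for 313 of the 316 genes, a pattern shown by 10.2% of all genes tested. In edgeR's quasi-likelihood test, with calls at a Benjamini-Hochberg adjusted p under 0.05 and at least a 2-fold difference, each of the 316 was called lower in EAS than in each other tissue. The share called lower among all genes tested was 29.8% for EAS against Emb, 28.0% against AS, 16.3% against End, 29.5% against SAL and 31.0% against Per. The share called higher in EAS was 24.1%, 24.8%, 8.34%, 14.0% and 19.3%, in the same order, and no EAS-low gene was among them. The choice of genes fixes these counts.

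**Figure D1:**
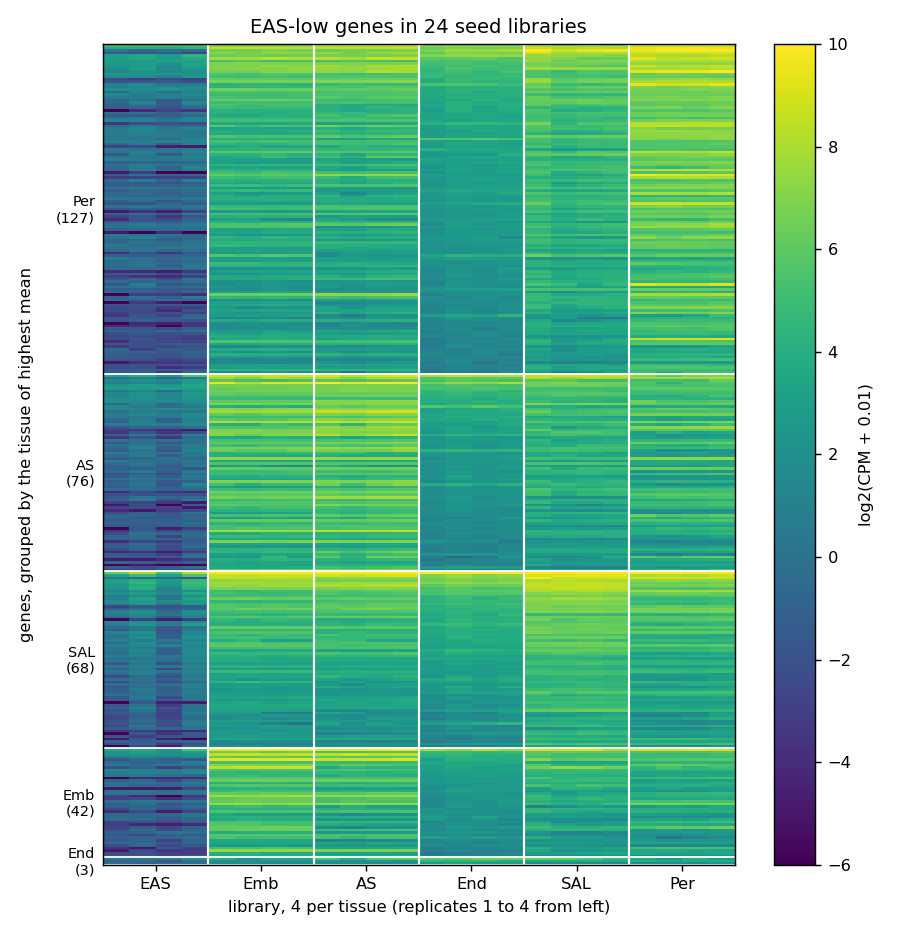
Level of the 316 EAS-low genes (rows) in each of the 24 libraries (columns, 4 per tissue), as log2(CPM + 0.01), with rows grouped by the tissue of highest mean and the number of genes in parentheses. EAS columns are the darkest, and End columns are darker than those of Emb, AS, SAL and Per in most rows.

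The same rule applied with another tissue as the low one found fewer genes: 49 for AS, 30 for Per, 8 for Emb, 5 for End and 3 for SAL. A gene low in both of a similar pair of tissues fails the rule, and how far this shaped the counts was not tested.

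The most abundant gene of the set by its lowest other mean was Zm00001d047253. It had 76.6, 264, 38.9 and 313 CPM in EAS. In Emb it had 4675, 5067, 4388 and 4973 CPM, in AS 4993, 4496, 4368 and 5184, in End 1431, 1968, 1392 and 1648, in SAL 4148, 5007, 5251 and 5457, and in Per 1045, 1125, 1003 and 1281. Its 4 EAS libraries spread over a wider range in proportion than any other tissue's, and its highest EAS library stayed under its lowest Per library. Second was Zm00001d023343, with 11.6, 14.3, 5.77 and 41.3 CPM in EAS. Its End libraries, the lowest of the other tissues, held 230, 154, 309 and 175 CPM, and its Emb libraries 784, 1102, 933 and 1126 CPM.

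The largest ratio of the lowest other mean to the EAS mean belonged to Zm00001d043687. It had 1 read in the 4 EAS libraries, in replicate 2, and 300 reads in the 4 End libraries, where it averaged 2.13 ± 0.561 CPM (SD, n = 4). The ratio of reads, scaled for depth, was 358 with a 95% counting interval of 63.8 to 14180. The interval covers counting error only. Next came Zm00001d005146, an abundant gene in all 5 other tissues. It had 0.310, 0.308, 0.384 and 0.144 CPM in EAS. Its End libraries held 61.5, 113, 104 and 97.3 CPM, its Emb libraries 144, 100.1, 157 and 132, and its AS libraries 179, 101, 157.5 and 199.6. SAL held 495, 223, 266 and 276.5 CPM, and Per 416, 389, 493 and 541. The EAS mean was 0.286 ± 0.102 CPM and the End mean 93.99 ± 22.6 CPM (SD, n = 4 each), a ratio of 328. No EAS library came near the range of the others.

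**Figure D2:**
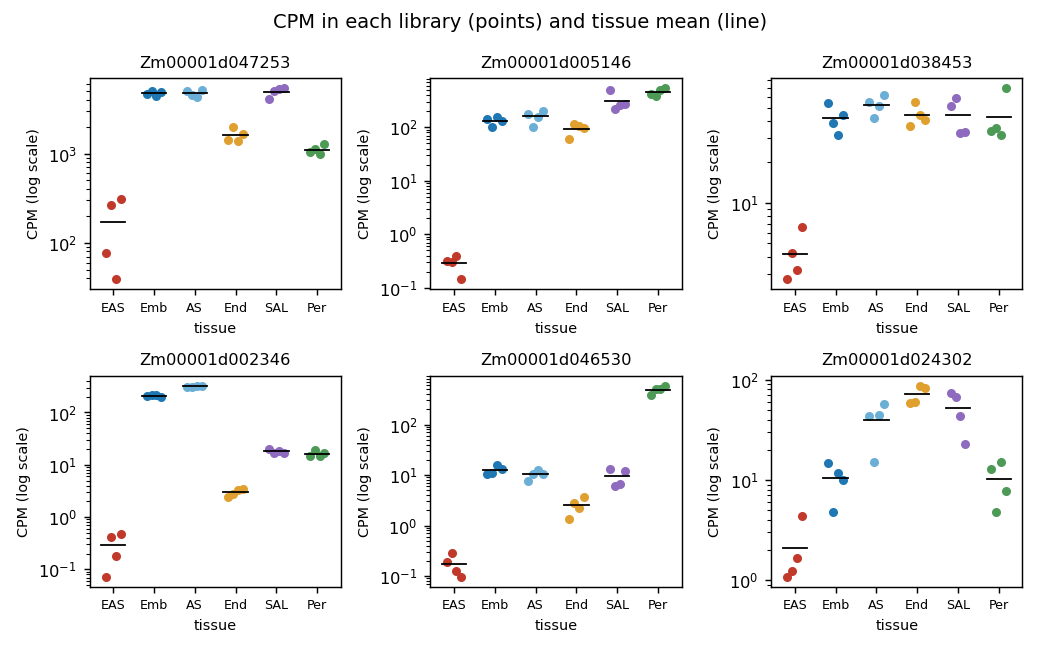
CPM on a log scale in each library (points) with the mean of each tissue (line) for 6 EAS-low genes. Zm00001d005146 stays under 0.4 CPM in each EAS library, Zm00001d038453 is close to even outside EAS, and Zm00001d047253 shows the spread between EAS libraries.

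The 4 EAS libraries differed among themselves in these genes. The median over the 316 was 0.525 CPM in EAS replicate 1, 0.858 in replicate 2, 0.436 in replicate 3 and 0.958 in replicate 4, and the summed level was 471, 866, 370 and 1106 CPM in the same order. Replicates 2 and 4 were thus high and replicates 1 and 3 low. Replicate 4 was the highest EAS library for 177 genes, 56% of the set, against 22.7% of the 15526 genes at 2 CPM or more in the 5 other tissues. Replicate 2 was highest for 86 genes, 27.2% of the set, against 27.6% of those 15526.

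Levels in EAS of genes typical of neighbouring tissues were set beside this order. A list of 25 genes typical of SAL was taken after the data were seen. These had at least 10 CPM in SAL, 20 times End and 4 times Emb, AS and Per. EAS levels entered only in that the EAS-low genes were removed from this list and from those below. The removal can raise the EAS level of a list, by an amount that was not tested. The SAL list summed to 704, 1206, 666 and 991 CPM in EAS replicates 1 to 4, or 20.5% to 37.04% of its level in SAL. In the other tissues the sum was 55.0 to 165.5 CPM in End, 109 to 158 in Emb, 69.8 to 85.5 in AS, 147.5 to 346 in Per and 2649 to 4055 in SAL itself. In EAS replicates 1 and 3, 1 of the 25 genes was at 0 reads, and in replicates 2 and 4 none was. A like list of 251 genes typical of Emb and AS summed to 327, 486, 427 and 440 CPM in EAS replicates 1 to 4, or 1.45% to 2.15% of its level in the source tissues, against 258 to 338 CPM in End, 942 to 972.5 in SAL and 803 to 904 in Per, and 8 of its genes had 0 reads in all EAS libraries. One of 361 genes typical of Per summed to 465, 550.2, 580 and 546 CPM, or 1.34% to 1.67%, against 579 to 947.5 CPM in End and 2536 to 4750 CPM in SAL, with 18 genes at 0 in all EAS libraries. The EAS-low genes themselves stood at a median of 2.25%, 4.36%, 2.00% and 5.15% of their SAL mean in EAS replicates 1 to 4. The sum of the SAL list was higher in EAS replicates 2 and 4 than in replicates 1 and 3, and highest in replicate 2. That of the Emb and AS list was lowest in replicate 1, with replicate 4 only slightly above replicate 3. The sum of the Per list was highest in replicate 3, where the EAS-low genes were low. The part of neighbouring tissue in the EAS level of the EAS-low genes and of these lists was not tested. Without EAS replicates 2 and 4 the rule found 440 genes, among them 314 of the 316, and without replicate 4 alone it found 379.

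When genes were chosen again without one replicate number in all tissues, the left-out libraries gave a value that the 4-fold and 2 CPM limits had not used. The filter on low counts and the TMM scaling were not repeated and rested on all 24 libraries. Of 303 genes chosen without replicate 1, 302 were lower in the left-out EAS library than in each other left-out library, and 269 were at 25% or less of the lowest of them. Without replicate 2, 333 genes were chosen, and 333 and 248 of them met these criteria. Without replicate 3, 294 genes were chosen, and 294 and 276 met them. Without replicate 4, 358 genes were chosen, and 354 and 224 met them. The median EAS level in the left-out libraries was 10.8%, 16.6%, 8.06% and 20.4% of the lowest other, in the same order. Replicate 4, the library with the highest levels, thus met the 25% limit least often, for 62.6% of genes, against 88.8%, 74.5% and 93.9% for replicates 1, 2 and 3. The share of genes outside these choices that met either criterion in left-out libraries was not tested. By means over all libraries, EAS lay under the lowest other tissue for 3080 of the 15526 genes, or 19.8%.

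**Figure D3:**
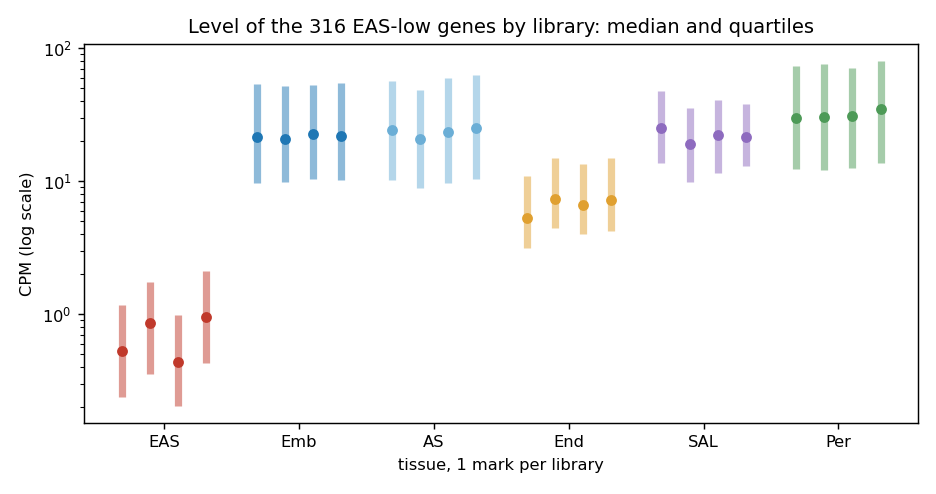
Median (point) and quartiles (bar) of CPM, on a log scale, over the 316 EAS-low genes in each of the 24 libraries, 4 per tissue in order of replicate number. The EAS medians lie between 0.436 and 0.958 CPM, the End medians between 5.31 and 7.41 CPM, and the medians of Emb, AS, SAL and Per between 19.1 and 35.1 CPM.

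The bulk endosperm held the next lowest level of these genes. End had the lowest mean of the 5 other tissues for 223 of the 316, or 70.6%, and the highest for 3. Among the 15526 genes at 2 CPM or more in the 5 tissues, End was the lowest for 28.3% and the highest for 30.7%. The median over the set, averaged over the 4 libraries of a tissue, was 0.694 ± 0.253 CPM in EAS, 6.65 ± 0.953 in End, 21.7 ± 0.866 in Emb, 23.4 ± 1.87 in AS, 22.1 ± 2.56 in SAL and 31.5 ± 2.44 in Per (SD, n = 4 each). The same median over the 15526 genes lay between 24.3 and 28.0 CPM in each library. For 128 genes, 40.5% of the set, the means of Emb, AS, SAL and Per were each at least 2 times that of End, which held for 6.29% of the 15526. For 35 genes, 11.1% of the set, they were each at least 4 times that of End, against 0.831% of the 15526. Over the 15526 genes, EAS and End had similar levels, with a ratio of the End mean to the EAS mean of 0.968 at the median and quartiles of 0.776 and 1.28. Genes chosen for a low level in EAS are therefore not independent of a low level in End, and the rule also used the means of all 5 tissues. The counts and medians over the set in the comparisons with End below are descriptions.

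Embryo against endosperm compares the 2 products of fertilisation. Of the 316 genes, 206 were called higher in Emb than in End, or 65.2%, and 9 were called lower (edgeR, adjusted p under 0.05 and at least 2-fold). Of all genes tested, 26.3% were called higher and 23.7% lower, and of the 15526 genes at 2 CPM or more 19.7% and 13.9%. The median log2 fold change was 1.44 over the set and 0 over all genes tested. Zm00001d040741 had 167, 172, 149 and 162 CPM in Emb, against 1.96, 2.47, 1.84 and 2.24 CPM in End (log2 difference 6.25 with an SE of 0.21, adjusted p = 2.2e-17 by edgeR), and a mean of 0.0931 CPM in EAS. Zm00001d002346 had 208, 217, 212 and 201 CPM in Emb, against 2.41, 2.79, 3.33 and 3.40 CPM in End (log2 difference 6.13 with an SE of 0.16, adjusted p = 5.79e-19 by edgeR), with 0.287 ± 0.193 CPM in EAS and 314 ± 8.51 CPM in AS (SD, n = 4 each). For both genes the Emb and End libraries were far apart and varied little. In the other direction, Zm00001d024302 had 14.9, 4.83, 11.6 and 10.1 CPM in Emb, against 58.0, 60.4, 87.3 and 83.5 CPM in End (log2 difference -2.81 with an SE of 0.46, adjusted p = 6.43e-06 by edgeR). It is one of the 3 genes with their highest mean in End, and its EAS libraries held 1.07, 1.23, 1.67 and 4.33 CPM. Zm00001d005742 had 5.14, 4.26, 1.79 and 0.911 CPM in Emb, against 8.14, 10.8, 16.4 and 24.3 CPM in End (log2 difference -2.30 with an SE of 0.49, adjusted p = 0.000173 by edgeR).

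The aleurone layer beside the scutellum belongs to the endosperm, as EAS does. Of the 316, 240 were called higher in SAL than in End, or 75.9%, and 4 were called lower, against 28.6% and 12.5% of all genes tested and 15.4% and 12.2% of the 15526. The median log2 fold change was 1.74 over the set and 0.24 over all genes tested. Zm00001d043049 had 88.2, 168, 141 and 90.2 CPM in SAL, against 7.76, 13.2, 8.38 and 9.64 CPM in End (log2 difference 3.64 with an SE of 0.27, adjusted p = 3.87e-11 by edgeR). It averaged 0.308 ± 0.183 CPM in EAS (SD, n = 4). Zm00001d003354 had 29.7, 29.4, 24.6 and 25.9 CPM in SAL, against 2.17, 1.51, 2.97 and 2.63 CPM in End (log2 difference 3.56 with an SE of 0.25, adjusted p = 2.03e-11 by edgeR). The 4 genes called lower in SAL included Zm00001d017502, with 14.7, 15.0, 11.1 and 12.9 CPM in SAL, against 55.4, 36.5, 65.1 and 36.5 CPM in End (log2 difference -1.86 with an SE of 0.22, adjusted p = 7.81e-08 by edgeR). They also included Zm00001d024047, with 2.89, 1.95, 1.87 and 1.76 CPM in SAL, against 5.77, 8.79, 8.68 and 7.23 CPM in End (log2 difference -1.84 with an SE of 0.23, adjusted p = 2.56e-07 by edgeR).

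Pericarp against endosperm showed the widest range. Of the 316, 224 were called higher in Per than in End, or 70.9%, and 12 lower, against 29.9% and 19.5% of all genes tested and 18.5% and 17.8% of the 15526. The median log2 fold change was 2.07 over the set and 0.12 over all genes tested. Zm00001d046530 had 377, 495, 496 and 587 CPM in Per, against 1.37, 2.76, 2.26 and 3.65 CPM in End (log2 difference 7.59 with an SE of 0.31, adjusted p = 7.31e-16 by edgeR). Its mean was 0.175 CPM in EAS, 12.5 CPM in Emb, 10.4 CPM in AS and 9.46 CPM in SAL, so that the gene ranged over 195 times among the 5 tissues, the widest of the set. Zm00001d042780 had 607, 451, 416 and 627 CPM in Per, against 1.96, 5.56, 4.37 and 4.25 CPM in End (log2 difference 7.02 with an SE of 0.45, adjusted p = 1.8e-12 by edgeR). Among the 12 called lower, Zm00001d024302 had 12.9, 4.78, 15.0 and 7.75 CPM in Per against the End values above (log2 difference -2.85 with an SE of 0.46, adjusted p = 5.97e-06 by edgeR). Zm00001d052958 had 44.2, 20.8, 46.1 and 50.8 CPM in Per, against 101.5, 170.3, 144.5 and 267 CPM in End (log2 difference -2.08 with an SE of 0.41, adjusted p = 8.58e-05 by edgeR). That gene reached 1709 ± 758 CPM in AS, with 1.74, 2.24, 2.08 and 7.57 CPM in EAS.

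End was called lower than each of Emb, SAL and Per for 139 of the 316 genes, or 44%, against 10.6% of all genes tested and 6.66% of the 15526. These 3 comparisons share the End libraries.

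**Figure D4:**
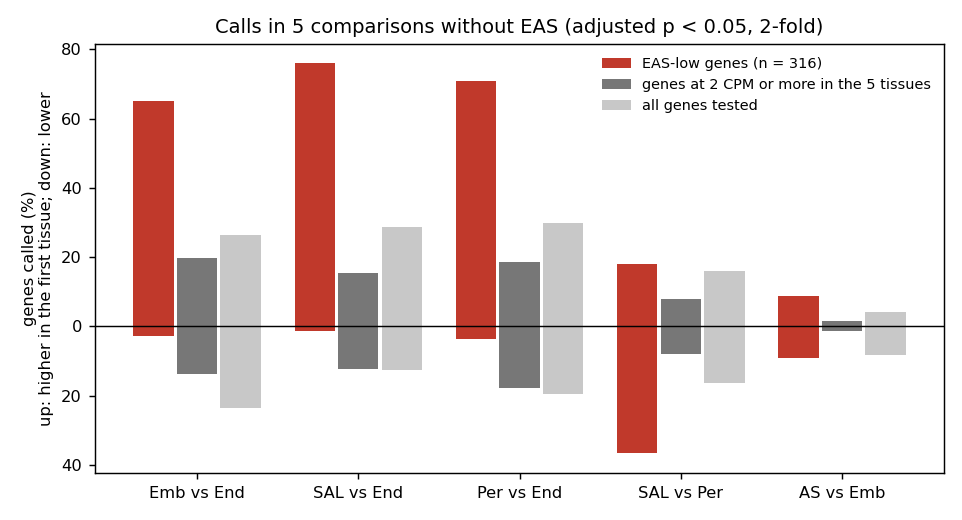
Percent of genes called higher (upward bars) or lower (downward bars) in the first-named tissue in 5 comparisons that do not involve EAS, for the 316 EAS-low genes, the 15526 genes at 2 CPM or more in the 5 tissues, and all 26495 genes tested. In the 3 comparisons with End, 65.2% to 75.9% of the EAS-low genes were called higher in the other tissue.

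The set was not even across the remaining tissues. The highest of the 5 means was at least 8 times the lowest for 148 genes, 46.8%, against 9.65% of the 15526, and under 2 times for 6 genes, 1.90%, against 36.2%. In none of the 5 comparisons made here was a call obtained for 10 of the 316 genes, 3.16%, against 27.9% of all genes tested and 43.7% of the 15526. Among the few even ones, Zm00001d038453, chosen after its values were seen, came closest to a gene lowered in EAS alone. It had 2.72, 4.29, 3.20 and 6.63 CPM in EAS, against means of 42.3 ± 9.43 CPM in Emb, 53.1 ± 8.55 in AS, 44.2 ± 7.82 in End, 44.4 ± 13.6 in SAL and 42.9 ± 18.3 in Per (SD, n = 4 each). The 5 other tissues overlapped with one another, and EAS did not overlap with any of them. Zm00001d041236, chosen likewise, had 1.74, 3.19, 1.05 and 3.47 CPM in EAS, against means between 17.4 CPM in End and 26.1 CPM in SAL.

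Grouped by the tissue of highest mean, 127 genes peaked in Per, 76 in AS, 68 in SAL, 42 in Emb and 3 in End. Pericarp was the highest tissue for 40.2% of the set, against 22.5% of the 15526, and SAL for 21.5% against 11.7%. For AS the shares were 24.1% against 18.5%, and for Emb 13.3% against 16.6%. The Per group had a median of 0.662 CPM in EAS, 68.1 CPM in Per and 7.13 CPM in End. The AS group had 0.670 CPM in EAS, 59.0 CPM in AS, 40.6 CPM in Emb and 5.43 CPM in End. The SAL group was the highest in EAS, at 1.10 CPM, with 38.4 CPM in SAL and 11.2 CPM in End. The Emb group had 0.513 CPM in EAS, 42.96 CPM in Emb and 5.01 CPM in End. In these 4 groups End was the lowest other tissue for 97 of 127, 57 of 76, 39 of 68 and 30 of 42 genes.

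**Figure D5:**
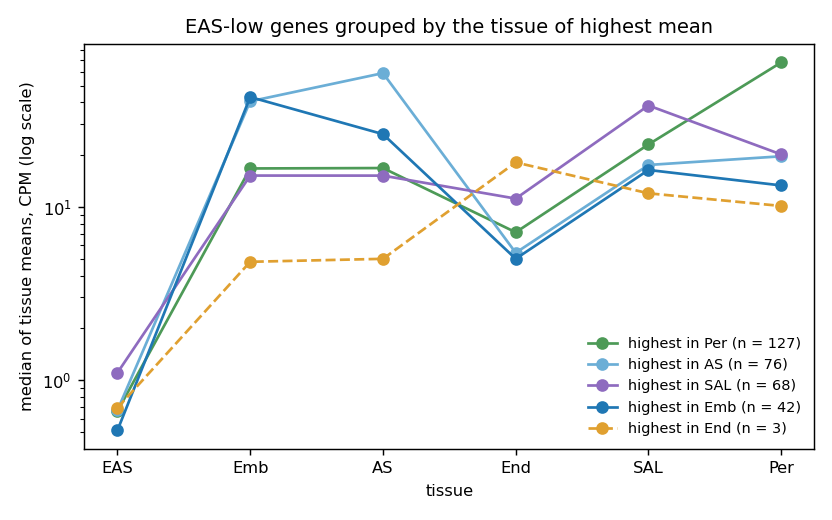
Median over genes of the tissue means, in CPM on a log scale, for the EAS-low genes grouped by the tissue of highest mean. The groups differ in where they are highest, and the 4 groups with 42 or more genes show a second low point in End, between 5.01 and 11.2 CPM.

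Pericarp and aleurone, the tissues in which many of these genes peaked, also differed from each other. Of the 316, 57 were called higher in SAL than in Per, or 18%, and 116 lower, or 36.7%. The shares were 16.1% and 16.4% of all genes tested, and 7.95% and 7.99% of the 15526. Zm00001d002234 had 169, 218, 197.5 and 181 CPM in SAL, against 24.3, 23.0, 22.0 and 26.1 CPM in Per (log2 difference 3.001 with an SE of 0.36, adjusted p = 1.18e-07 by edgeR). Zm00001d026351 had 313, 388, 362 and 321 CPM in SAL, against 49.3, 44.95, 41.2 and 46.6 CPM in Per (log2 difference 2.93 with an SE of 0.36, adjusted p = 2.45e-07 by edgeR). Both SAL-high genes followed the order of the EAS libraries given above: Zm00001d002234 had 2.07, 9.15, 1.13 and 10.3 CPM in EAS replicates 1 to 4, and Zm00001d026351 had 4.20, 16.9, 1.95 and 16.9 CPM. Toward pericarp, Zm00001d046530 had 13.3, 5.96, 6.58 and 12.02 CPM in SAL against the Per values above (log2 difference -5.66 with an SE of 0.27, adjusted p = 1e-13 by edgeR). Zm00001d002690 had 30.6, 12.1, 9.49 and 15.7 CPM in SAL, against 841, 704, 588 and 592 CPM in Per (log2 difference -5.32 with an SE of 0.28, adjusted p = 2.85e-13 by edgeR). Its EAS libraries, at 0.382, 0.880, 0.666 and 0.551 CPM, did not follow that order. Other genes called lower in SAL than in Per did follow it. Among them, Zm00001d022017 had 5.15, 6.685, 3.332 and 9.937 CPM in EAS replicates 1 to 4, and Zm00001d006753 had 7.892, 11.1, 6.612 and 13.79 CPM. Zm00001d022017 and Zm00001d006753 were chosen after their values were seen. How many genes of either direction followed the order was not tested.

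The apical scutellum faces the EAS across the boundary. Between it and the embryo, 259 of the 316 genes were not called, but calls were more frequent than among the 15526 in both directions. Beside all genes tested, the share called lower was similar. Of the 316, 28 were called higher in AS than in Emb, or 8.86%, and 29 lower, or 9.18%, against 4.02% and 8.42% of all genes tested and 1.64% and 1.26% of the 15526. Zm00001d017502 had 74.4, 56.8, 85.4 and 76.97 CPM in AS, against 15.7, 12.8, 16.6 and 15.0 CPM in Emb (log2 difference 2.29 with an SE of 0.22, adjusted p = 3.05e-08 by edgeR). Zm00001d024302 had 43.8, 15.2, 44.2 and 57.3 CPM in AS, against the Emb values above (log2 difference 1.96 with an SE of 0.45, adjusted p = 0.00133 by edgeR). Its lowest AS library was only just above its highest Emb library. Lower in AS, Zm00001d002278 had 2.83, 2.25, 4.26 and 4.52 CPM, against 68.4, 71.2, 92.2 and 87.1 CPM in Emb (log2 difference -4.52 with an SE of 0.26, adjusted p = 1.31e-11 by edgeR). Zm00001d043049 had 13.1, 24.6, 19.7 and 18.7 CPM in AS, against 324, 419, 431 and 404 CPM in Emb (log2 difference -4.38 with an SE of 0.27, adjusted p = 3.62e-11 by edgeR). Both AS-low genes were far lower still in EAS, where Zm00001d002278 averaged 0.306 CPM.

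Single replicates were also often the highest library in AS, Per, SAL and End, but not in Emb, where the leading one, replicate 3, was highest for 106 of the 316 genes, 33.5% against 33.4% of the 15526. Replicate 4, harvested on 18 May where a date is given, was the highest AS library for 168 genes, 53.2% against 21.3%, and the highest Per library for 156, 49.4% against 32.8%. In SAL, replicate 1 was highest for 171 genes, 54.1% against 27.8%. In End, replicates 2 and 4 were highest for 132 and 120 genes, 41.8% and 38%, against 25.7% and 27%, and replicate 1 for 12 genes, 3.8% against 24.4%. In proportion to its mean, the median over the 316 genes varied less between the libraries of each of these tissues than between those of EAS.

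The limits of the rule cut through a continuous range. Just inside the 4-fold limit were Zm00001d027423, at 3.91 CPM in EAS and 15.7 CPM in Emb, its lowest other tissue, and Zm00001d025235, at 1.22 CPM in EAS and 4.91 CPM in End. Just outside were Zm00001d052977, at 0.532 CPM in EAS and 2.12 CPM in End, and Zm00001d033612, at 6.95 CPM in EAS and 27.5 CPM in Per. A ratio between 3 and 4 was held by 141 genes that met the floor, and 68 genes of the set had a ratio between 4 and 5. At the 2 CPM floor, Zm00001d028011 and Zm00001d003281 were just inside, with 2.01 and 2.02 CPM in End, and Zm00001d018024 and Zm00001d044136 just outside, with 1.99 and 1.98 CPM.

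The rule left out microRNA precursor loci, which the files name. Of 48 such loci that passed the filter on low counts, none met it, and 1, MIR167g, was at 2 CPM or more in the 5 other tissues, with 44.7 ± 5.75 CPM in EAS and 56.9 ± 4.98 CPM in End (SD, n = 4 each). MicroRNAs of this family act on auxin response factors. EAS had the lowest mean of the 6 tissues for 14 of the 48, among them MIR398b, whose family acts on copper/zinc superoxide dismutases, with 0.173 ± 0.103 CPM in EAS and 0.491 ± 0.233 CPM in Per, its lowest other tissue (SD, n = 4 each). Its EAS and Per libraries overlapped, at 0.0880 to 0.311 CPM in EAS and 0.286 to 0.794 CPM in Per, all low levels.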

How the data were processed

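Poly(A) RNA was sequenced from both ends without strand marking, per the labels' protocols. TopHat2, Bowtie2 and B73 RefGen_v4 are named in the submitters' processing notes; their versions, the annotation release and the counter's settings: not given in the sources used here. Each deposited file lists raw read counts, in whole numbers, and ends in the summary rows of htseq-count. Per library, 7.81% to 16.2% of the records in each file were not uniquely placed, 4.24% to 6.41% lay outside genes and 1.07% to 2.63% were ambiguous, so near-identical copies are uncertain, and reads of overlapping genes on opposite strands cannot be told apart.

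From the counts, the 5 summary rows and 154 microRNA rows were dropped (microRNA rows were kept where microRNAs are reported). The filter on low counts was filterByExpr (grouped by tissue, minimum count 10); genes were then scaled by TMM and fitted with edgeR 4.0.16 (R 4.3.3; glmQLFit and glmQLFTest, tissue as the term, all 24 libraries, Benjamini-Hochberg adjustment over 26495 genes). Each SE was derived as the log2 difference over the root of its F value, not fitted. In single libraries, 3 reads correspond to 0.0450 to 0.162 CPM. The test and the rule were tested on simulated data. DESeq2 1.42.0 served as an alternative.

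Members, lists and comparisons were chosen with earlier results of these data known. Genes named are the first 2 by lowest other mean, by ratio to EAS, by fold in each direction of a comparison without overlap of its 8 libraries, and beside each limit. Zm00001d038453, Zm00001d041236, Zm00001d022017 and Zm00001d006753 are exceptions, named after their values were seen. Groups by gene description and marker lists by symbol were planned but could not be applied, since 0 of 41614 identifiers matched the table of 49888 genes.

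Replicate numbers share a harvest day across tissues per the labels (27 April, 1 May, 4 May and 18 May). Exceptions are EAS replicate 3, dated 5 April, Emb replicate 1, dated in another year, and SAL replicate 4, with no date. Same-numbered libraries of different tissues had a median correlation of deviations from tissue means of 0.104 to 0.206. No pair of replicates was identical (chi-square per degree of freedom of 7.34 or more). The labels do not say that replicates came from separate plants, so p-values reflect only how these samples vary, which may be technical.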

Additional observations from a re-analysis of the deposited data

Results flagged for a closer look

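Of 186 sets of 4 libraries checked for a value far from the other 3, 10 had one, and chance alone gives about 1 in 20. In EAS replicate 2, Zm00001d043687 had 0.0220 CPM with 0 reads in the other EAS libraries, Zm00001d003354 had 0.374 CPM with at most 0.0256 CPM in the others, and Zm00001d042780 had 1.89 CPM with 0.238 to 0.407 CPM in the others. In EAS replicate 4, Zm00001d052958 had 7.57 CPM with 1.74 to 2.24 CPM in the others, and Zm00001d005742 had 1.80 CPM with 0.205 to 0.462 CPM in the others. In Per replicate 4, Zm00001d003354 had 19.1 CPM with 28.6 to 29.0 CPM in the others, and Zm00001d038453 had 70.3 CPM with 31.8 to 35.6 CPM in the others. In SAL replicate 1, Zm00001d024047 had 2.89 CPM with 1.76 to 1.95 CPM in the others. In AS replicate 2, Zm00001d002690 had 135 CPM with 165 to 171 CPM in the others, and Zm00001d044136, just outside the set, had 19.3 CPM with 23.9 to 24.5 CPM in the others.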

How the results depend on the processing

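The number of genes meeting the rule was 287 to 457 under DESeq2's size factors, library totals without scaling (248 of the 316 kept), other filters on low counts, a fold of 3 and a floor of 1 CPM, and 313 with every EAS library under every other library. It was 136 with a fold of 8 and 87 with a floor of 10 CPM, both stricter by construction. Leaving out 1 library gave 291 to 379. The EAS level at the median was 14.0% and 14.6% of the lowest other under the other scalings, and 8.06% to 20.4% in left-out replicates. In the 5 comparisons, every count of calls stayed within 1.5 times under DESeq2, its size factors, both filters, fits of the 2 tissues alone and leaving out each library: 202 to 210 and 7 to 13 for Emb against End, 230.0 to 246 and 3 to 4 for SAL against End, 220.0 to 231 and 10 to 14 for Per against End, 55 to 62 and 105 to 127 for SAL against Per, and 24 to 38 and 26 to 29 for AS against Emb, higher and lower. With replicate number as a block, the counts were 207 and 9, 242 and 4, 224 and 11, 57 and 115, and 27 and 29, in the same order, so the block changed none by over 1.5 times. The 20 results of named genes kept direction and call in all 280 values obtained under these alternatives. These genes were picked for the largest folds without overlap of libraries, a choice that favours such stability. Depth limits the ratios of the 2 genes with 3 EAS reads or fewer.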
